A study of Mus musculus with 3 samples.

Results

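The genes examined here encode the core proteins of microRNA silencing. They are Tnrc6a, Tnrc6b and Tnrc6c, which encode the GW182 proteins, Ago1, Ago2, Ago3 and Ago4, which encode the Argonautes (named Eif2c1 to Eif2c4 in annotations of the mm9 period), and Dicer1. CELF1 (CUGBP1) is an RNA-binding protein of the nucleus and cytoplasm with roles in alternative splicing and in mRNA turnover. Its sites were mapped by CLIP-seq, in which 254 nm UV light crosslinks protein to RNA before immunoprecipitation and sequencing. One library each came from heart ventricle of 16-week-old C57/BL6 mice, from muscle of 16-week-old C57/BL6 mice, and from cultured C2C12 myoblasts, a cell line grown from mouse muscle. The antibody was clone 3B1 against endogenous CELF1 in all 3 libraries, and the labels name no transgene or treatment. The kind of muscle and the number of animals behind each library were not given in the sources used here. The data are lists of clusters, short stretches of RNA in which the authors found more crosslinked reads than expected from a gene's expression level and the length of its unspliced RNA. Clusters were assigned to a gene by the Entrez identifier in the deposited lists, and all 8 genes had clusters. Together they held 215 of 72222 clusters, of which 116 of 42263 were in the heart list, 87 of 24844 in the muscle list and 12 of 5115 in the myoblast list. The genes were chosen by their function and selected on their known numbers of clusters in these libraries, so these numbers are given as a description without a test. With 1 library per group, no difference between heart, muscle and myoblasts has a replicate check, and every interval covers counting error only, with clusters of 1 gene not independent of each other.

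Dicer cuts microRNA precursors into short duplexes, and an Argonaute protein takes up 1 strand as a guide to matching sites, most of them in 3' untranslated regions (3' UTRs) of mRNAs. GW182 proteins bind Argonaute and recruit the deadenylase complexes that shorten the poly(A) tail. Ago2 is the mammalian Argonaute that can cut a fully matched target. CELF1 itself binds GU-rich sequence that contains UGU and is also known to promote deadenylation.

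The sequences that carry the binding are shown first. Sites were formed by joining clusters of the 3 libraries that overlapped on the same strand, and 6 of the 144 sites of these genes held a cluster in every library. They are printed 5' to 3' as RNA, from the stretch common to all 3 libraries, with UGU in capitals. Where that stretch was longer than 30 nt, the 30 nt with the most UGU are shown, so the number of UGU is no measure of the site against its surroundings. Positions refer to mm9 (NCBIM37). Of these, 4 lay in Tnrc6b on the plus strand, at chr15:80762058-80762087, chr15:80765564-80765593, chr15:80767418-80767447 and chr15:80769363-80769392. The Ago2 site lay at chr15:72936435-72936464 and the Ago3 site at chr4:126022017-126022031, both on the minus strand.
Tnrc6b site A: cuuUGUaagacagugagugggaaauucUGU
Tnrc6b site B: aUGUuacuuugaguuagUGUuuUGUuuUGU
Tnrc6b site C: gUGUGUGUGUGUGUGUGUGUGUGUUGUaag
Tnrc6b site D: ccagggacuucaagaaguucuuugccgUGU
Ago2 site: gaugcUGUuucccuuucguugacgaggggc
Ago3 site: gacuucugguuuucu
These sites range from an almost pure GU repeat to a stretch without UGU. Tnrc6b site C held 12 UGU in the printed 30 nt. Site D held 1, since the myoblast cluster reached only the upstream edge of a heart cluster that was 119 nt wide and held 24 UGU. The stretch common to all libraries in Ago3 was 15 nt and held 0 UGU.

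In the 5 genes without such a site, 18 sites were shared by heart and muscle, and some from Tnrc6a, Ago1, Ago4 and Dicer1 are printed to show what their common stretch held. They lay at chr7:130284289-130284318 in an intron of Tnrc6a and at chr7:130336833-130336861 in its 3' UTR (both plus strand), and, on the minus strand, in the 3' UTRs of Ago1 (chr4:126112391-126112420), Ago4 (chr4:126167509-126167538) and Dicer1 (chr12:105927498-105927527).
Tnrc6a, intron: ugacguuUGUuUGUuUGUuUGUuUGUuUGU
Tnrc6a, 3' UTR: uuaccuuugcacugagugaUGUucuccgu
Ago1, 3' UTR: uuUGUuucccauugagacuUGUGUuUGUGU
Ago4, 3' UTR: UGUuuuuuUGUUGUuaguUGUugaauccug
Dicer1, 3' UTR: gcguuUGUuUGUGUuggggguUGUccccag
The printed 30 nt of the Tnrc6a intron were mostly a run of UUGU units with 6 UGU, whereas the common stretch in the Tnrc6a 3' UTR, 29 nt long, held 1 UGU. The printed 30 nt of Ago1, Ago4 and Dicer1 held between 4 and 5 UGU. The printed sites are examples, and none from Tnrc6c is shown. In the 3' UTR of Dicer1, the shared sites not printed held 2 and 1 UGU in their best 30 nt. In that of Ago4 they held 2 and 4.

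Heart and muscle clusters were found in all 8 genes, and 4 of them, Tnrc6b, Ago1, Ago2 and Ago3, were also bound in myoblasts. Over all annotated protein-coding genes, 33.5% had a cluster in heart, 26.0% in muscle, 13.4% in myoblasts and 8.80% in every library. The same 8, 8 and 4 genes had a cluster in the 3' UTR in heart, muscle and myoblasts, where the background was 20.4%, 17.8% and 5.61%. Nothing is read from these shares, because the choice of genes used the same numbers. The median gene of the 8 held 9.5 heart, 7.5 muscle and 0.5 myoblast clusters, against 3, 3 and 1 for all genes with at least 1 cluster. The myoblast medians are not alike, since the 8 include genes without a myoblast cluster and the other set leaves such genes out. No cluster of another gene overlapped a cluster of these genes.

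**Figure D1:**
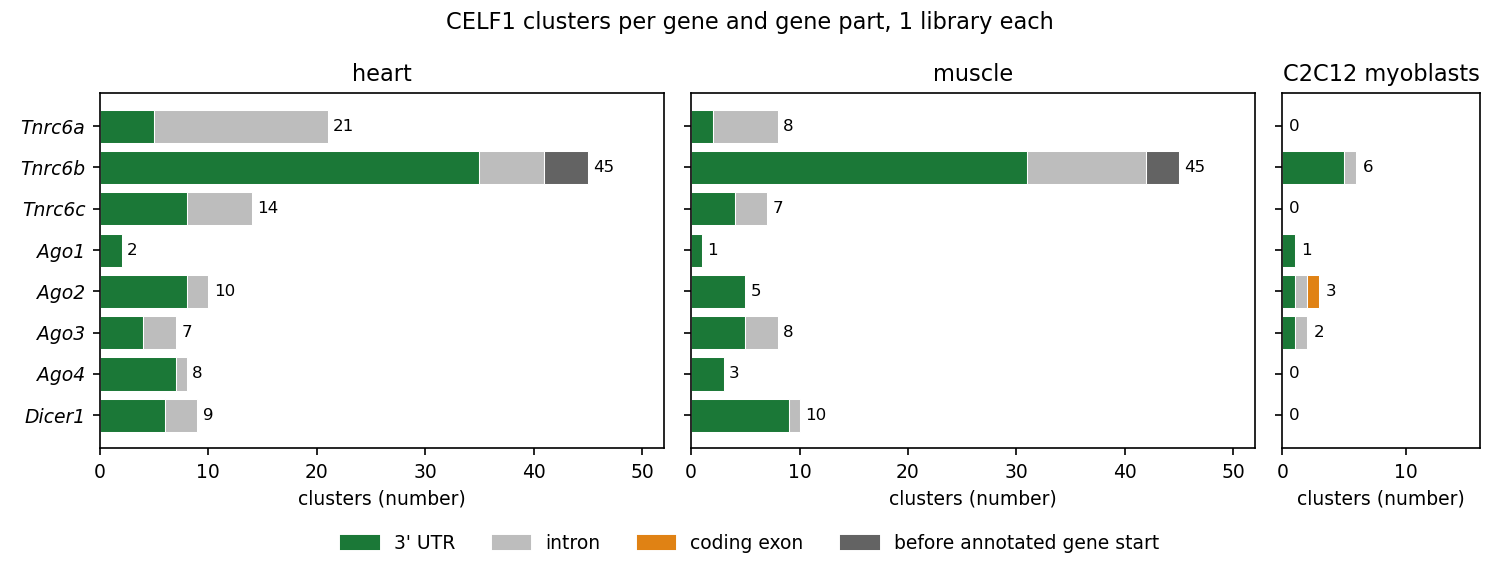
Number of CELF1 clusters in each gene (rows) by gene part (colour), with a panel each for heart, muscle and C2C12 myoblasts and the total printed at the end of each bar; each panel is 1 library. Tnrc6b had 45 clusters in heart and 45 in muscle, and only Ago2 had a coding exon cluster, in myoblasts.

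The heart list held 116 clusters in these genes (exact Poisson 95% interval 95.9 to 139), the muscle list 87 (69.7 to 107) and the myoblast list 12 (6.20 to 21.0). The order of heart and muscle depended on the scale. Per 1000 clusters of the library, the values were 2.74 in heart, 3.50 in muscle and 2.35 in myoblasts. Counting 3' UTR clusters only, per 1000 3' UTR clusters of the library, they were 5.38, 4.82 and 4.61 in the same order of libraries. The number of reads behind a cluster is not in the lists. By the study's account of its sequencing, the myoblast library had about as many mapped reads as the heart library and more than the muscle library. Fewer copies of an mRNA and less binding per copy cannot be told apart. Cluster widths had medians of 56.5 nt in heart, 57 nt in muscle and 40.5 nt in myoblasts, near the 55, 54 and 38 nt of all clusters.

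Marker genes were compared with the labels of the libraries by their clusters. Of 7 heart markers, 6 were bound in heart, 2 in muscle and 2 in myoblasts, and Ryr2 had 252 clusters in heart and 0 in both other libraries, while Nppa had 0 in every library. All 7 skeletal muscle markers had clusters in heart and in muscle, but with 22 heart clusters, 107 muscle clusters and 0 myoblast clusters. Of 5 myoblast and proliferation markers, 1 was bound in heart, 2 in muscle and 3 in myoblasts, with Myf5 and Mki67 at 0. The tissue lists also held clusters in genes of other cell types. The 5 endothelial markers had 38 heart clusters, 19 muscle clusters and 0 myoblast clusters, the 4 smooth muscle markers 12, 4 and 2, the 5 fibroblast markers 4, 4 and 2, and the 5 macrophage markers 2, 1 and 0. The part of these cells in the clusters of the microRNA silencing genes was not tested.

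Most clusters of these genes lay in 3' UTRs. The share was 64.7% in heart (75 of 116, exact Clopper-Pearson 95% interval 55.2% to 73.3%), 69.0% in muscle (60 of 87, 58.1% to 78.5%) and 66.7% in myoblasts (8 of 12, 34.9% to 90.1%). Over all clusters of each library it was 33.0%, 50.1% and 33.9%. Without Tnrc6b the shares were 56.3%, 69.0% and 50.0%, so that in heart and in myoblasts (3 of 6) the gap to the library was smaller without that gene. Introns held 37 of 116 clusters in heart (31.9%), 24 of 87 in muscle (27.6%) and 3 of 12 in myoblasts (25.0%). The libraries as a whole had 58.7%, 43.2% and 60.4% in introns. Without Tnrc6b the intronic shares were 43.7%, 31.0% and 33.3%. Coding exons held 0 of 116 clusters in heart (interval 0% to 3.13%) and 0 of 87 in muscle (0% to 4.15%), where the libraries as a whole had 5.72% and 4.53%. The single coding exon cluster was in myoblasts, in exon 6 of 19 of Ago2 at chr15:72957459-72957495, and overlapped no cluster of heart or muscle. No cluster fell in a 5' UTR, a part that held only 0.55%, 0.52% and 0.35% of all heart, muscle and myoblast clusters.

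Tnrc6b (Entrez 213988, chromosome 15 from 80590016 to 80771516, plus strand) held more clusters than any of the other 7 genes in every library. It had 45 heart clusters, 45 muscle clusters and 6 myoblast clusters, of which 35, 31 and 5 lay in the 3' UTR. Its annotated 3' UTR is long, 11613 nt, and the number of clusters has to be read against that length. Among 12403 genes with at least 500 nt of annotated 3' UTR, Tnrc6b ranked 2 in heart, 4 in muscle and 13 in myoblasts by its number of 3' UTR clusters. Per kb of 3' UTR its cluster density was 3.01 in heart, 2.67 in muscle and 0.43 in myoblasts, and it ranked 548, 629 and 706. The median gene with a 3' UTR cluster had 1.28, 1.30 and 0.59 per kb, so Tnrc6b lay above it in the tissues and below it in myoblasts. In myoblasts, genes with a 3' UTR cluster had a median of 1 such cluster, so a long 3' UTR by itself places a gene low in this comparison. The 3 genes whose numbers of 3' UTR clusters were closest to those of Tnrc6b, by the summed absolute difference over the 3 libraries, were Qk, which encodes an RNA-binding protein, with 36 heart clusters, 33 muscle clusters and 1 myoblast cluster, the kinesin gene Kif1b with 33, 36 and 3, and the kinase gene Taok1 with 27, 35 and 4. These 3 also had long annotated 3' UTRs, of 8391, 7729 and 8708 nt.

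**Figure D2:**
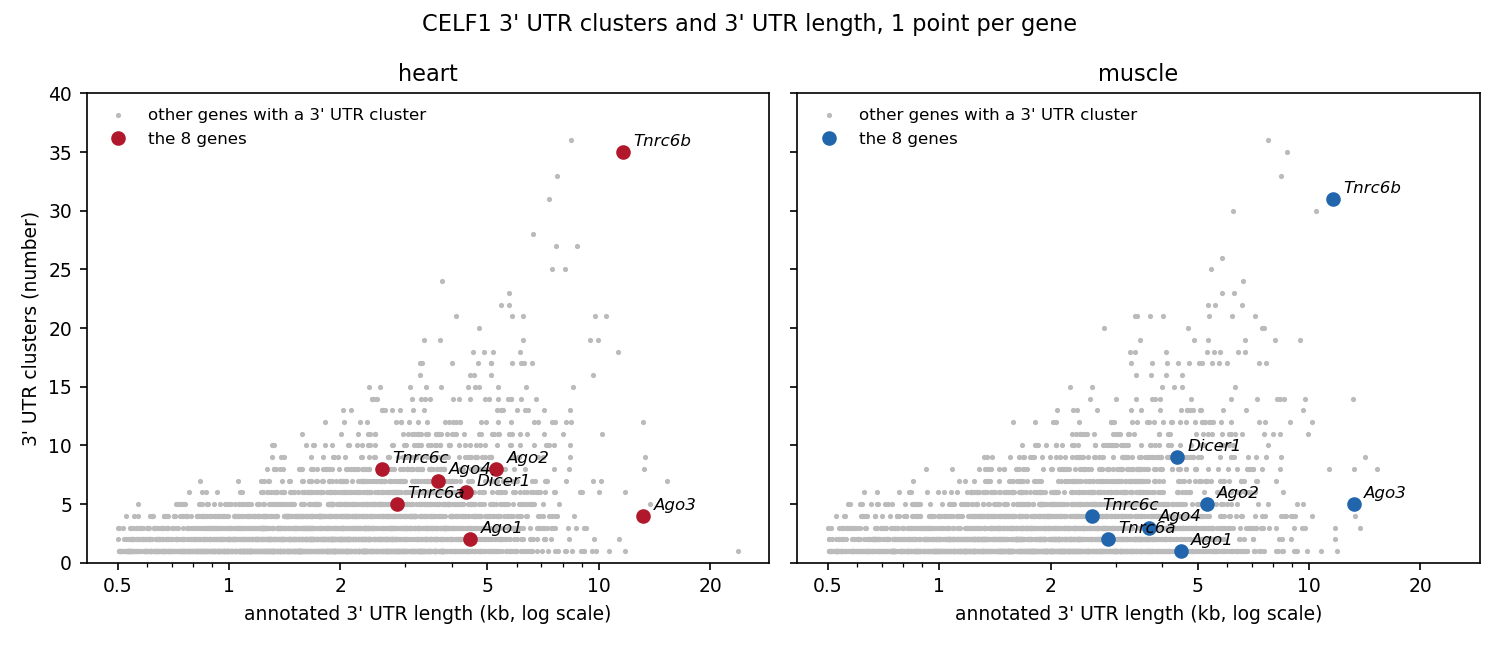
Number of 3' UTR clusters (vertical axis) against the annotated 3' UTR length in kb (horizontal axis, log scale) in heart (left) and muscle (right); grey points are other genes with at least 1 such cluster and coloured points the 8 genes, 1 library per panel. Tnrc6b had 35 clusters in heart and 31 in muscle in 11613 nt, while Ago3 had 4 and 5 in a union of 13190 nt.

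The clusters of Tnrc6b were spread over most of its 3' UTR. Measured from the first base of the stop codon to the cluster midpoint, they ran from 438 to 9940 nt in heart, from 434 to 9941 nt in muscle and from 1469 to 9469 nt in myoblasts. In heart 8, 6, 5, 11 and 5 clusters fell in 5 equal parts of the 3' UTR, from the stop codon on, and in muscle 6, 5, 7, 9 and 4. Some stretches stood empty in every library. The last 1617 nt held no cluster, and the widest gap between clusters ran over 1373 nt, from 5963 to 7336 nt after the stop codon. The annotation also lists a short form of the 3' UTR, of 523 nt, for this gene. That form held 1 cluster in heart, 1 in muscle and 0 in myoblasts, against 34, 30 and 5 clusters that only the longer form holds.

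Heart and muscle used largely the same places in the Tnrc6b 3' UTR. Clusters covered 2677 nt (23.1%) of it in heart, 2262 nt (19.5%) in muscle and 228 nt (1.96%) in myoblasts. Heart and muscle shared 1754 nt, which was 65.5% of the nt covered in heart and 77.5% of those covered in muscle. Of the 5 myoblast clusters there, 4 were the sites shared by all libraries, whose midpoints lay about 2178, 5685, 7574 and 9504 nt after the stop codon. The remaining one, at chr15:80761352-80761394, overlapped no tissue cluster. The GU repeat printed as site C began a cluster 121 nt wide with 15 UGU in heart and one 99 nt wide with 14 in muscle, both starting at the same base as the 40 nt myoblast cluster.

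**Figure D3:**
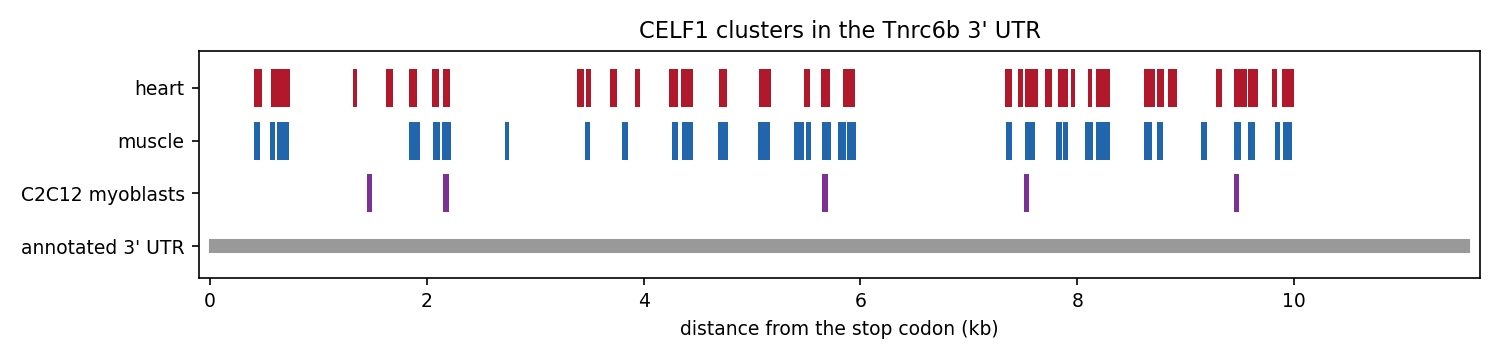
Map of the Tnrc6b 3' UTR with distance from the stop codon in kb on the horizontal axis; boxes are CELF1 clusters drawn to scale in heart, muscle and C2C12 myoblasts (1 library each) above the annotated 3' UTR in grey. Heart and muscle boxes stack over each other along the first 9996 nt, and the last 1617 nt are empty.

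Outside the 3' UTR, introns of Tnrc6b held 6 heart clusters, 11 muscle clusters and 1 myoblast cluster. Of these, 5, 11 and 1 fell in a single stretch of 73874 nt without an annotated exon (chr15:80615237-80689110). The myoblast cluster there overlapped a muscle cluster at chr15:80660790-80660858 and none in heart. It was the only site of all 8 genes that muscle and myoblasts shared without heart. A further 4 heart clusters and 3 muscle clusters carried the identifier of Tnrc6b but lay between 17853 and 46205 nt before its annotated start, beyond the gene model used here. Of these, those at chr15:80545723-80545780 and chr15:80548350-80548389 in heart each overlapped a muscle cluster, and the first held 16 UGU in 58 nt. The gene bounds the authors used for assigning clusters were not used here.

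Tnrc6a (Entrez 233833, chromosome 7 from 130267770 to 130338802, plus strand) differed from its paralog in where its clusters lay. It had 21 heart clusters, 8 muscle clusters and 0 myoblast clusters (0 allows up to 3.69 by the exact Poisson interval). Of the heart clusters 5 were in the 3' UTR and 16 in introns, and of the muscle clusters 2 and 6. Of the intronic clusters, 15 in heart and 4 in muscle fell in the first 19034 nt stretch without an exon, chr7:130268230-130287263, close behind the annotated start. Per 10 kb of intron, the cluster density of Tnrc6a was 2.53 in heart, 0.95 in muscle and 0 in myoblasts, against 0.57, 0.35 and 0.15 over all genes with an intronic cluster. All 4 muscle clusters of that stretch overlapped a heart cluster, and 1 of the 4 is the run of UUGU units printed above. In the 3' UTR the agreement was smaller. A single site there was shared, at 370 nt after the stop codon, and 29 nt were covered in both libraries, which was 9.76% of the nt covered in heart and 21.0% of those in muscle. The remaining 4 heart clusters lay up to 1266 nt after the stop codon, beyond a short annotated form of 782 nt, and the other muscle cluster at 741 nt, inside it.

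Tnrc6c (Entrez 217351, chromosome 11 from 117515603 to 117624753, plus strand) carried 14 clusters in heart and 7 in muscle, and none was called in myoblasts. The 3' UTR of 2591 nt held 8 of them in heart and 4 in muscle. Relative to length this was the densest of the 8 genes in heart, with 3.09 clusters per kb, next to 3.01 for Tnrc6b, values that counting error does not separate. In muscle it had 1.54 per kb. The clusters kept to the front of the 3' UTR, with 7 of 8 in heart and 4 of 4 in muscle inside the shorter annotated form of 1416 nt. What muscle covered was nearly all covered in heart, 178 nt or 90.8% of the muscle nt, whereas this was 34.0% of the heart nt. Its introns held 6 clusters in heart and 3 in muscle, spread over several introns, and 2 sites were shared.

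**Figure D4:**
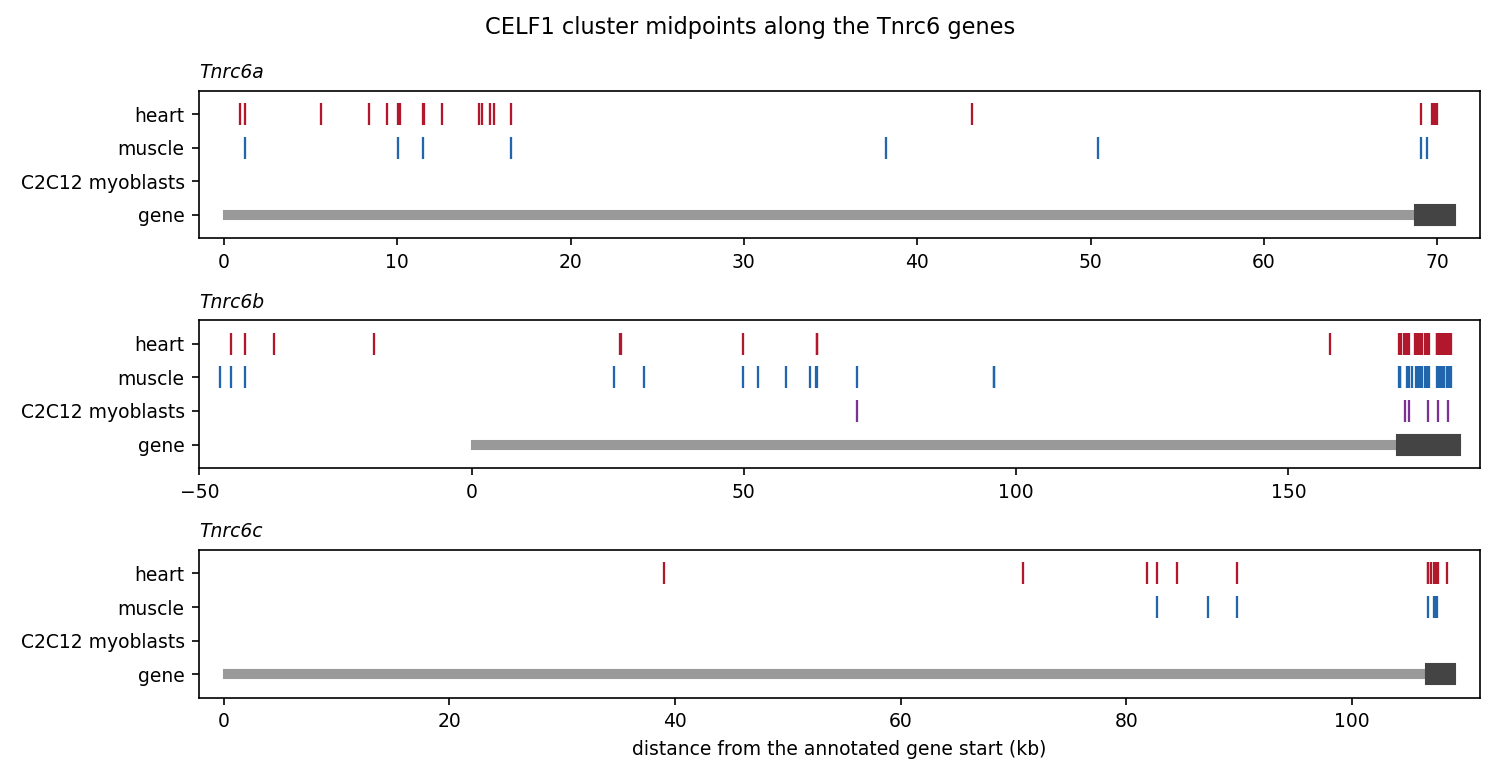
Cluster midpoints (ticks) along Tnrc6a, Tnrc6b and Tnrc6c, by distance from the annotated gene start in kb, in heart, muscle and C2C12 myoblasts (1 library each); the grey bar is the annotated gene and the dark end its longest 3' UTR. Heart ticks of Tnrc6a gather in the first 20 kb, where 15 of its 16 intronic clusters lie, while those of Tnrc6b gather in the 3' UTR, and 7 ticks of Tnrc6b lie before the annotated start.

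Ago2 (Entrez 239528, chromosome 15 from 72932055 to 73015377, minus strand) had the most clusters of the Argonaute genes in heart and in myoblasts. There were 10 heart clusters, 5 muscle clusters and 3 myoblast clusters, of which 8, 5 and 1 lay in the 3' UTR. They kept to its first part. Midpoints ran from 27 to 1844 nt after the stop codon in heart and from 879 to 1869 nt in muscle, the myoblast cluster lay at 889 nt, and the last 3371 nt of the 5286 nt held none, although 95 UGU stand there. The heart cluster nearest the coding sequence, chr15:72937283-72937344, spanned the stop codon and had no counterpart in muscle or myoblasts. Of the nt covered in muscle, 80.2% were covered in heart, and of those covered in heart 61.1% in muscle. The 2 intronic clusters in heart and the 1 in myoblasts lay in a single stretch of 38195 nt and did not overlap.

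Ago1, Ago3 and Ago4 lie on the minus strand of chromosome 4 within the stretch from 126008948 to 126210716, and differ in their clusters. Ago1 (Entrez 236511) had the fewest of the 8 genes in the tissues, with 2 in heart, 1 in muscle and 1 in myoblasts, all in a 3' UTR of 4494 nt. The heart and muscle clusters that overlapped were wide, 119 and 105 nt, held 12 and 11 UGU, and lay 153 and 155 nt before the annotated end of the transcript. The myoblast cluster lay 2988 nt after the stop codon, beside but not overlapping the other heart cluster at 3042 nt. Ago4 (Entrez 76850) had 8 heart clusters, 3 muscle clusters and 0 myoblast clusters, of which 7 and 3 were in its 3' UTR of 3685 nt. All 3 muscle clusters overlapped a heart cluster, and the last of each library lay 42 nt before the annotated end in heart and 41 nt before it in muscle. Ago4 thus had binding at the far end of the transcript in both tissues, as Ago1 did.

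Ago3 (Entrez 214150) has the longest annotated 3' UTR of the 8 genes, 12745 nt, and few clusters in it. It had 7 heart clusters, 8 muscle clusters and 2 myoblast clusters, of which 4, 5 and 1 were in the 3' UTR. Per kb of the union of its annotated 3' UTR forms, 13190 nt, this was 0.30, 0.38 and 0.08. Each value lay below the median gene with a 3' UTR cluster in that library, a comparison that in myoblasts depends largely on 3' UTR length. No cluster reached beyond 4186 nt after the stop codon, and all of them fell inside a shorter annotated form of 4799 nt. The 8559 nt after the last cluster, which include the end of that shorter form, hold 190 UGU. The 3 libraries met at 1 site, about 693 nt after the stop codon, where the heart cluster spanned 60 nt, the muscle cluster 38 nt and the myoblast cluster 45 nt. Of its 7 heart clusters, 6 overlapped a muscle cluster.

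**Figure D5:**
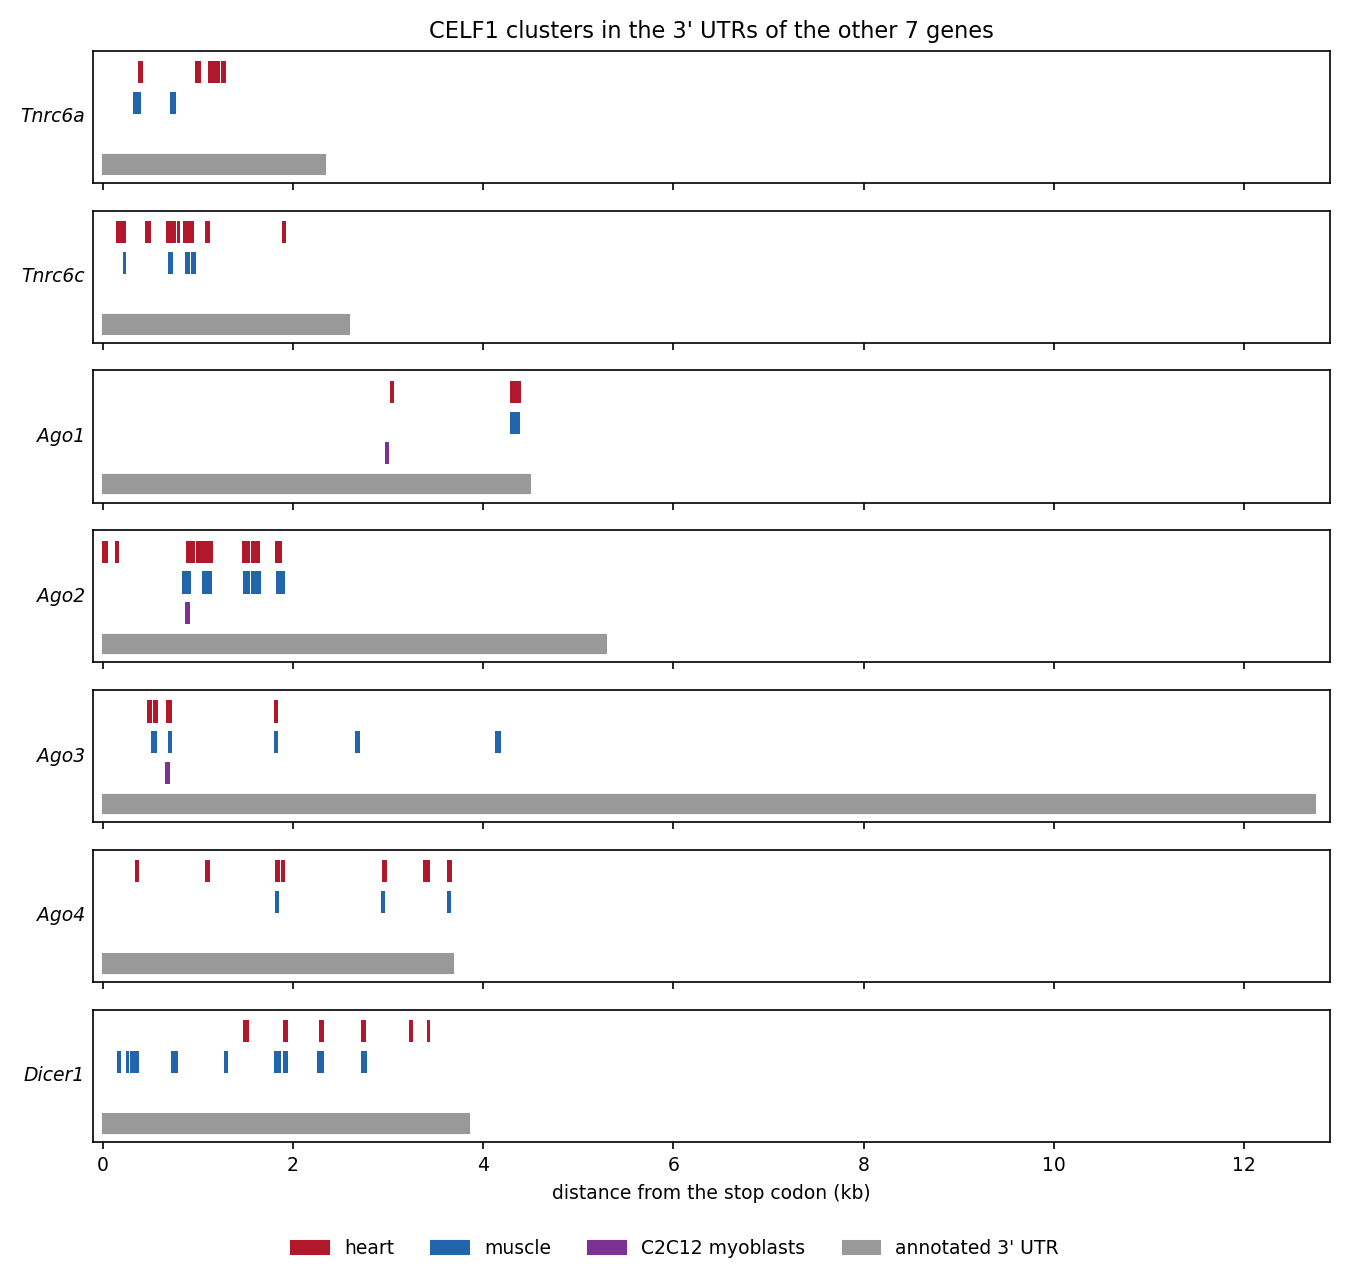
Clusters in the longest annotated 3' UTRs of the other 7 genes, with distance from the stop codon in kb on a common horizontal axis; in each panel the rows from the top are heart, muscle and C2C12 myoblasts (1 library each) and the grey bar is the 3' UTR. Clusters of Ago2 and Ago3 sit in the front part of long 3' UTRs, with 3371 nt of Ago2 and 8559 nt of Ago3 empty, while those of Ago1 and Ago4 reach the far end.

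Dicer1 (Entrez 192119, chromosome 12 from 105925952 to 105990162, minus strand), whose product makes the mature microRNAs, had about as many clusters in heart as in muscle, but partly in different places. There were 9 heart clusters, 10 muscle clusters and 0 myoblast clusters, with 6 and 9 in the 3' UTR. In 5 equal parts of the 3854 nt, from the stop codon on, heart had 0, 1, 2, 1 and 2 clusters and muscle had 4, 1, 3, 1 and 0. The 3 sites they shared lay in the middle, about 1922, 2290 and 2745 nt after the stop codon. The 5 muscle clusters between 169 and 1295 nt had no counterpart in heart, and the heart clusters at 3238 and 3425 nt had none in muscle. Of the nt covered in muscle, 28.2% were covered in heart, a smaller share than in any of the other 3' UTRs except that of Tnrc6a. Per kb of the union of its annotated 3' UTR forms, 4385 nt, Dicer1 had more 3' UTR clusters in muscle, 2.05, than in heart, 1.37. Among the 8 genes only Ago3 shared this direction, and numbers this small overlap within counting error.

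Over the 8 genes, many heart clusters were found again in muscle, and most muscle clusters in heart. Of the heart clusters 50.9% overlapped a muscle cluster (59 of 116, 41.4% to 60.3%), against 30.9% of all heart clusters. Of the muscle clusters 70.1% overlapped a heart cluster (61 of 87, 59.4% to 79.5%), against 52.8%. Of the 12 myoblast clusters, 6 (50.0%, 21.1% to 78.9%) overlapped a heart cluster, against 33.9%. A muscle cluster was overlapped by 7 (58.3%, 27.7% to 84.8%), against 25.0%. Few tissue clusters met a myoblast cluster, with 5.17% of the heart clusters against 4.19% of all, and 8.05% of the muscle clusters against 5.29%. Tnrc6b carried part of this. Without it, 71 heart, 42 muscle and 6 myoblast clusters remained. Of the heart clusters 42.3% met a muscle cluster and of the muscle clusters 69.0% a heart cluster, above the values of all clusters. This comparison was not matched for gene part. Without Tnrc6b, 3' UTRs held 56.3% of the heart and 69.0% of the muscle clusters, against 33.0% and 50.1% of all clusters. The shares in myoblasts then were 2.82% for heart clusters and 4.76% for muscle clusters, below those of all clusters but resting on few overlaps. Of the 6 myoblast clusters, 33.3% met a heart cluster and 33.3% a muscle cluster, too few to set against 33.9% and 25.0%. The gene part moved with these shares, since 3' UTR clusters were shared more often than intronic ones in all genes. Within 3' UTRs, 61.3% of the heart clusters of these genes met a muscle cluster, against 53.8% of all heart clusters in 3' UTRs, and 80.0% of their muscle clusters met a heart cluster (67.7% to 89.2%), against 60.9%. Within introns, 29.7% of the heart clusters met a muscle cluster (15.9% to 47.0%), against 18.9%. Of the intronic muscle clusters, 45.8% met a heart cluster (25.6% to 67.2%), against 43.6%. Of these shares within a gene part, only that of muscle clusters in 3' UTRs had an interval clear of the library value. The shares within a gene part were not computed without Tnrc6b. That gene held 35 of the 75 heart and 31 of the 60 muscle clusters in 3' UTRs, so they may rest largely on it. The shares are also not independent of how many clusters a gene has in both lists.

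Of the 144 sites, 87 were in 1 library, 51 in 2 and 6 in 3. Heart alone held 57, muscle alone 25 and myoblasts alone 5. Heart and muscle without myoblasts shared 50, muscle and myoblasts without heart shared 1, and no site was in heart and myoblasts only. Tnrc6b accounted for 58 of the sites and for 4 of the 6 found in every library. Where a heart and a muscle cluster overlapped each other and no further cluster of these 2 libraries, their midpoints were close, with a median offset of 7.5 nt over 49 pairs in these genes and 7.5 nt over 10854 pairs in all genes. By this measure the pairs in these genes were like those elsewhere.

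Nearly every tissue cluster of these genes held UGU, the core of the sequence CELF proteins bind. UGU on the RNA strand was present in 98.3% of heart clusters (114 of 116), 100% of muscle clusters (87 of 87) and 75.0% of myoblast clusters (9 of 12, 42.8% to 94.5%), against 98.3%, 98.4% and 86.4% of all clusters. The 5 clusters without it were in the 3' UTRs of Tnrc6b and Ago4 in heart, and in the 3' UTRs of Ago1 and Ago3 and an intron of Ago2 in myoblasts. The 3 in myoblasts had UGU within 10 nt of an edge, as did that of Ago4. The longer repeat UGUGUGUG was present in 13.8% of heart, 12.6% of muscle and 16.7% of myoblast clusters, against 16.3%, 11.1% and 10.3% of all. UGUUUGU was present in 10.3%, 17.2% and 8.33%, against 12.4%, 13.6% and 10.9%. In heart and muscle the intervals of these shares held the values of the whole libraries, and the 12 myoblast clusters give only wide intervals. These shares pool gene parts. Within 3' UTRs, UGUGUGUG was in 8.0% of heart and 6.67% of muscle clusters, against 5.67% and 4.6% of all. Within introns it was in 24.3% and 25.0%, against 23.8% and 19.6%, again with intervals that held the library values. The heart value was thus below the library only when gene parts were pooled. Motifs were searched on the RNA strand and UGU also occurs inside both longer ones.

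Within each 3' UTR, UGU was denser inside clusters than outside them. Pooling the libraries, the 3' UTR of Tnrc6b had 5.86 UGU per 100 nt inside clusters and 2.24 outside, and 50.1% of its UGU stood in the 27.8% of nt that clusters covered. Tnrc6c had the highest value inside clusters, 7.58 against 2.49 outside. Tnrc6a had the smallest contrast, 4.68 against 3.57. Inside clusters the remaining genes had between 5.35 (Dicer1) and 6.57 (Ago1), and outside them between 2.14 (Ago1) and 2.81 (Ago4). In Ago3 only 6.83% of the UGU stood inside clusters, and in Ago1 12.4%. UGU therefore stood in many stretches of these 3' UTRs where no cluster was called.

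Few intronic clusters lay next to an exon, as in the libraries as a whole. Within 300 nt of the nearest annotated exon there were 4 of 37 in heart (10.8%), 4 of 24 in muscle (16.7%) and 1 of 3 in myoblasts, against 12.5%, 15.1% and 16.4% of all intronic clusters. In Dicer1, a site 137 nt from an exon in heart was also bound in muscle, 142 nt from the exon. Its common stretch of 38 nt at chr12:105953235-105953272 on the minus strand held 6 UGU. Median distances were 2949 nt in heart, 3127 nt in muscle and 18182 nt in myoblasts, the last from only 3 clusters. Over all intronic clusters they were 3667, 2734 and 2481 nt. The largest distances were in Tnrc6b, up to 36873 nt in muscle.

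Other genes of the microRNA pathway were taken from a list of 35 that covers precursor processing and export, Argonaute loading, terminal uridylation, the deadenylases and the decapping and P-body proteins. Clusters were present in 24 of these genes in heart, in 21 in muscle and in 10 in myoblasts, with 8 bound in every library and 9 in none. Over all annotated protein-coding genes, expressed in these cells or not, the shares with a cluster were 33.5%, 26.0% and 13.4%, and 8.80% in every library. Clusters in the 3' UTR were present in 14, 12 and 6 genes of the list, where the shares of all genes were 20.4%, 17.8% and 5.61%. Median numbers of clusters on the list were 3 for heart, 2 for muscle and 0 for myoblasts, below those of the 8 genes. The list was led by Pan3, a subunit of the PAN2-PAN3 deadenylase that GW182 proteins recruit, with 22 heart clusters, 12 muscle clusters and 2 myoblast clusters, of which 1, 1 and 0 lay in the 3' UTR. Gigyf2, a translational repressor, had 15, 12 and 3 clusters, with 0, 1 and 0 in the 3' UTR. Lsm14a, a P-body protein, had 7, 9 and 1, with 4, 7 and 1 in the 3' UTR. Like Tnrc6a and unlike Tnrc6b, Pan3 and Gigyf2 had most of their clusters outside the 3' UTR.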

How the data were processed

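Before depositing, the authors removed duplicate reads, trimmed adapters, mapped reads to mm9 and splice junctions with Bowtie and TopHat, kept unique matches, and called clusters from windows of 30 nt against a Poisson model of gene expression and unspliced length. The versions of both programs were not stated in the labels or the methods. The deposited files list cluster coordinates on a strand and an Entrez identifier, called per library, and hold no read numbers. A further column is 1e-06 in every row and was not used.

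Clusters were used as deposited. Gene parts came from GENCODE vM1 on NCBIM37 by cluster midpoint, 3' UTR first. Of 8037 identifiers, 7981 were matched (all 8 genes), with symbols from a RefSeq table of GRCm38 used for names only. Where a symbol named several annotated genes, the longest was taken. The annotated 3' UTR includes the stop codon. Overlap meant at least 1 bp on the same strand. Intervals are exact at 95%. Gene part, overlap, position and motif steps were tested on simulated data with known answers. The genes and lists were chosen with earlier results of these data known. By rule, all 8 genes were named, the 3 list genes with most clusters, the 3 genes closest to Tnrc6b, and sites in the most libraries. Of the sites shared by heart and muscle only, some were printed as examples. Python 3.11.15, scipy 1.17.1, pysam 0.24.0 and samtools 1.23.1 were used. Alternatives were cluster width, merging, gene part priority, overlap, 3' UTR definition, motif and leaving out Tnrc6b.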

Additional observations from a re-analysis of the deposited data

How the results depend on the processing

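Of 72 comparisons of a main value with an alternative, 56 stayed within counting error (or 1.5 times, for counts), 15 moved beyond it and 1 turned round. Restricting to clusters at least 50 nt wide left 70 clusters in heart and 3 in myoblasts, put the ratio of heart to myoblasts at 23.3 and of muscle to myoblasts at 20, raised the 3' UTR share to 77.1% in heart and 100% in myoblasts, and gave 100% for the share of myoblast clusters in heart and in muscle. Per 1000 clusters of the library the ratio of heart to muscle was 0.784 instead of 1.33, the opposite order, and those of heart and muscle to myoblasts were 1.17 and 1.49, since the heart list is longer than the muscle list and both are longer than the myoblast list. Allowing a gap of 50 nt put the share of heart clusters in muscle at 60.3%, and asking for 50% of both clusters put that of muscle in heart at 56.3%. UGU followed by U or G was in 88.8% of heart and 93.1% of muscle clusters, and adding 10 nt on each side put UGU in 100% of myoblast clusters. For single genes, 13 of 74 values moved. No paired analysis was possible because each group has 1 library. Reads behind a cluster are not in the lists, a gene without a cluster is not shown to be unbound, and unique mapping leaves out repeated sequence.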
